A study of Mus musculus with 39 samples.

Results

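The comparison described here is that of injured sciatic nerves between the *Lepr*-cKO and *Lepr*-ctrl genotypes, taken 4 weeks after a crush (4 wpc). Its members are the libraries that the sample titles label as ipsilateral at 4 wpc, 4 per genotype, and together they are 8 of the 39 libraries of the series. Both groups were C57BL/6 mice of both sexes, between 2 and 4 months of age, with floxed *Lepr* alleles (Leprfl/fl), and in both the sciatic nerve of one side was crushed. *Lepr*-ctrl mice carried the floxed alleles alone, and *Lepr*-cKO mice (Leprfl/fl::*Dhh*-Cre) also carried a Cre transgene under *Dhh* regulatory sequences, which is active in Schwann cells and their precursors. The deletion removes exon 1, and a truncated receptor can still be made. RNA was taken from whole distal endoneurium after the sheath around it was stripped, so that Schwann cells, macrophages, fibroblasts and vessels were sequenced together. In such bulk tissue fewer cells of a type and less RNA per cell cannot be told apart. The uninjured contralateral nerves of the same mice (healthy, 5 libraries per genotype, with 1 further mouse each) and the injured nerves of other mice at 2 wpc (5 per genotype) served as comparisons.

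The 8 libraries differed in ways other than genotype, and these differences are given first. Read counts in the *Lepr*-ctrl libraries were 11545907 (animal WT-170), 16771683 (WT-171), 17640587 (WT-173) and 10905806 (WT-178), and in the *Lepr*-cKO libraries 25923752 (KO-169), 16950807 (KO-175), 18153534 (KO-176) and 15071347 (KO-177). Levels below are given in this order of animals, as CPM, the reads of a gene scaled to a common library size with edgeR's TMM factors, and animals are named as in the labels, WT for *Lepr*-ctrl and KO for *Lepr*-cKO. By *Xist* and *Ddx3y*, 1 of the 4 *Lepr*-ctrl mice (WT-173) and 2 of the 4 *Lepr*-cKO mice (KO-175 and KO-176) were male. Messenger RNAs encoded by the mitochondrial genome took 18.9%, 18.9%, 15% and 19.1% of the counts in *Lepr*-ctrl and 2.79%, 11.1%, 8.78% and 18% in *Lepr*-cKO libraries, against 1.84% ± 0.208 (SD, n = 5) and 2.36% ± 0.704 (SD, n = 5) in healthy nerves. The library of *Lepr*-cKO animal KO-169 was thus near the level of healthy nerves, and that of *Lepr*-cKO animal KO-177 was at the level of the controls. On the first principal component of the 8 libraries, which held 28.9% of the variance, these same libraries lay at 67.9 (animal KO-169) and -33.8 (animal KO-177), where the controls reached from -67.7 to 4.45 and the other *Lepr*-cKO libraries had 32.1 and 45.3. The log2 profiles of libraries correlated with r between 0.956 and 0.968 within *Lepr*-ctrl, between 0.948 and 0.972 within *Lepr*-cKO and between 0.939 and 0.973 across genotypes, and these ranges overlapped.

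**Figure D1:**
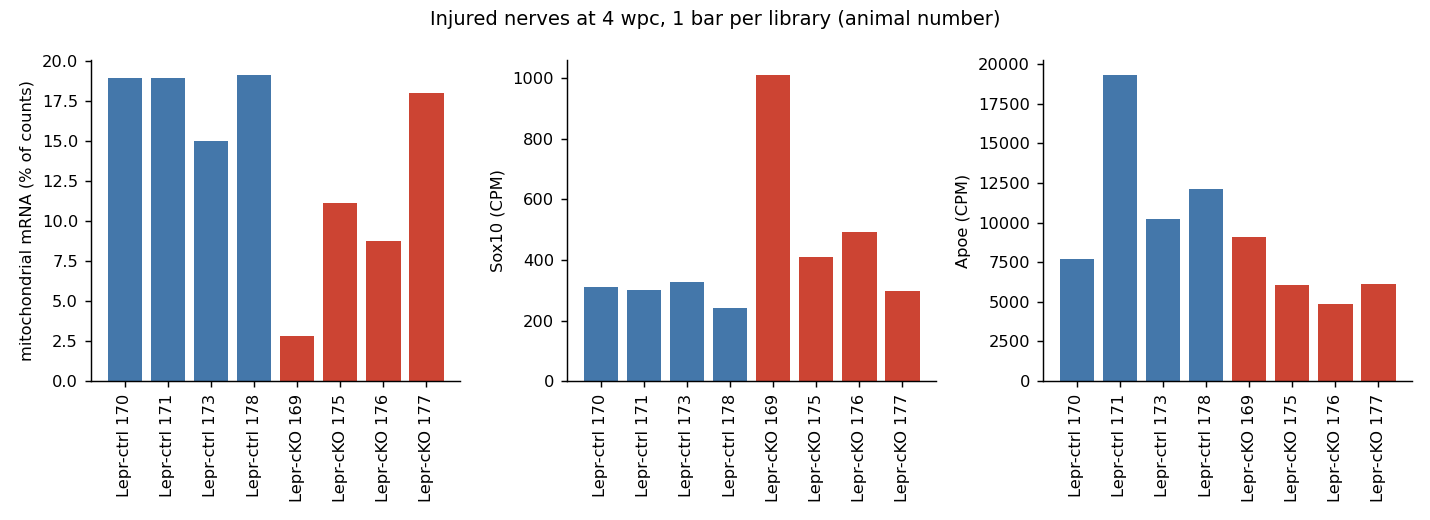
Bars show, for each of the 8 injured libraries at 4 wpc (x axis, animal number), the share of counts from mitochondrially encoded mRNAs in percent and the levels of *Sox10* and *Apoe* in CPM (y axes, from 0). *Lepr*-cKO animal KO-169 had the lowest mitochondrial share (2.79%) and the highest *Sox10* level (1010 CPM), and *Lepr*-cKO animal KO-177 lay within the range of the *Lepr*-ctrl libraries in the mitochondrial share.

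Markers of the tissue were present as the label says. *Sox10*, the transcription factor that defines the Schwann cell lineage, had 311, 301, 328 and 240 CPM in *Lepr*-ctrl and 1010, 409, 491 and 297 CPM in *Lepr*-cKO libraries, with KO-169 far above the others. *Erbb3*, the neuregulin receptor of these cells, ranged from 209 to 451 CPM and the calcium-binding protein *S100b* from 177.3 to 405 CPM over the 8 libraries. Skeletal muscle, which surrounds the nerve, was nearly absent, with a sum of at most 2.41 CPM over *Acta1*, *Ckm*, *Myh4* and *Mylpf*, and lymphocyte markers summed to at most 2.09 CPM. Adipocyte markers (*Adipoq*, *Plin1* and *Lep*) ranged from 0 to 46.7 CPM in *Lepr*-ctrl and from 0.438 to 59.2 CPM in *Lepr*-cKO libraries, and these ranges overlapped.

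After a crush injury the axons distal to the lesion degenerate, and myelinating Schwann cells turn into repair cells that take down their own myelin and call in macrophages to clear the debris. As axons regrow, the Schwann cells wrap them again, and for this they need large amounts of cholesterol and fatty acids, made by enzymes under the control of the SREBP transcription factors or taken up from debris and lipoproteins. *Lepr* encodes the receptor of leptin, a hormone of fat cells that signals through JAK2 and STAT3. The comparison asks how the transcriptome of the regenerating nerve differs when Schwann cells lack the intact receptor.

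*Lepr* itself (ENSMUSG00000057722, GRCm38 chr4:101717404-101815352, plus strand) did not separate the genotypes. Its level in *Lepr*-cKO relative to control nerves was -0.54 on the log2 scale (standard error, SE, 0.33, edgeR quasi-likelihood test with Benjamini-Hochberg adjusted p = 0.362), with a 95% interval from -1.19 to 0.10, and the 4 *Lepr*-cKO levels lay inside the range of the *Lepr*-ctrl levels. The value was -0.22 without control animal WT-170 and -0.78 without control animal WT-173, the ends of its range when 1 library was left out. The counts cover the whole gene, so they do not measure exon 1 alone. *Leprot*, which regulates the amount of receptor at the cell surface, had a log2 fold change of 0.47 (edgeR adjusted p = 0.194), and of 0.13 without animal KO-169. *Rnf41*, a ubiquitin ligase that acts on cytokine receptor traffic, had 41.4, 49.0, 46.4 and 45.4 CPM in *Lepr*-ctrl and 57.6, 53.1, 55.6 and 52.7 CPM in *Lepr*-cKO libraries. The groups did not overlap for *Rnf41*, yet the difference of 0.27 missed the threshold (edgeR adjusted p = 0.0904). Among 25 genes of leptin receptor signalling, 17 were higher and 8 lower in *Lepr*-cKO nerves, none passed the test (background 1.31% of all genes; 3 at an unadjusted p under 0.05), and the median log2 fold change was 0.03, equal to that of all 18442 genes tested. Without animal KO-177, 1 gene of this list passed as higher and 1 as lower (background 6.85% and 5.22% in that fit). The lowest p-values besides *Rnf41* and *Leprot* were those of the phosphatases *Ptpn11* (-0.51, edgeR adjusted p = 0.14) and *Ptpn1* (-0.29, edgeR adjusted p = 0.289).

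Across all genes, 241 passed an edgeR adjusted p under 0.05 (1.31% of the genes tested), 188 higher (1.02%) and 53 lower (0.287%) in *Lepr*-cKO nerves. With an absolute log2 fold change above 1 in addition, 83 genes were called (0.45%), 67 higher (0.363%) and 16 lower (0.0868%), of which 63 code for proteins and 31 had a mean log2 CPM of at most 1 over the 39 libraries of the series. For 53 of the 83 genes the levels of both genotypes lay apart, where over all genes this held for 5.68%. The 83 genes were selected by their difference between these same libraries, so the larger share is no separate evidence. At an unadjusted p under 0.05 there were 3667 genes (19.9%), 2247 higher (12.2%) and 1420 lower (7.7%). The count of called genes depended on the libraries in the fit. It was 15 without *Lepr*-cKO animal KO-169, 702 without *Lepr*-cKO animal KO-177, 139 without both, 6 without *Lepr*-ctrl animal WT-171, and 0 when the 8 libraries were fitted alone (2190 genes at an unadjusted p under 0.05). Of all genes, 0.0691% passed as higher and 0.0266% as lower without animal KO-169, 6.85% and 5.22% without animal KO-177, and 1.19% and 0.683% without both, and the counts per list in these fits stand against these shares. At an unadjusted p under 0.05, in either direction, there were 2517 of 18801 genes without animal KO-169 and 5136 of 18748 without animal KO-177. Without both there were 4170 of 19319. With the animal as a block, since both nerves of a mouse were in the fit, limma-voom called 27 genes, 11 higher and 16 lower, and 18 of the 44 named genes that passed did so in this fit as well. No limma-voom fit without the block was run. Here and below, the change of method and the block therefore cannot be told apart. In 8 fits that each left out 1 of the 8 libraries, 4 genes passed every time. They were *Gm49442*, *Dhh*, *Map7d2* and *Rhbdd2*, the last of which is named because it was seen in this result.

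**Figure D2:**
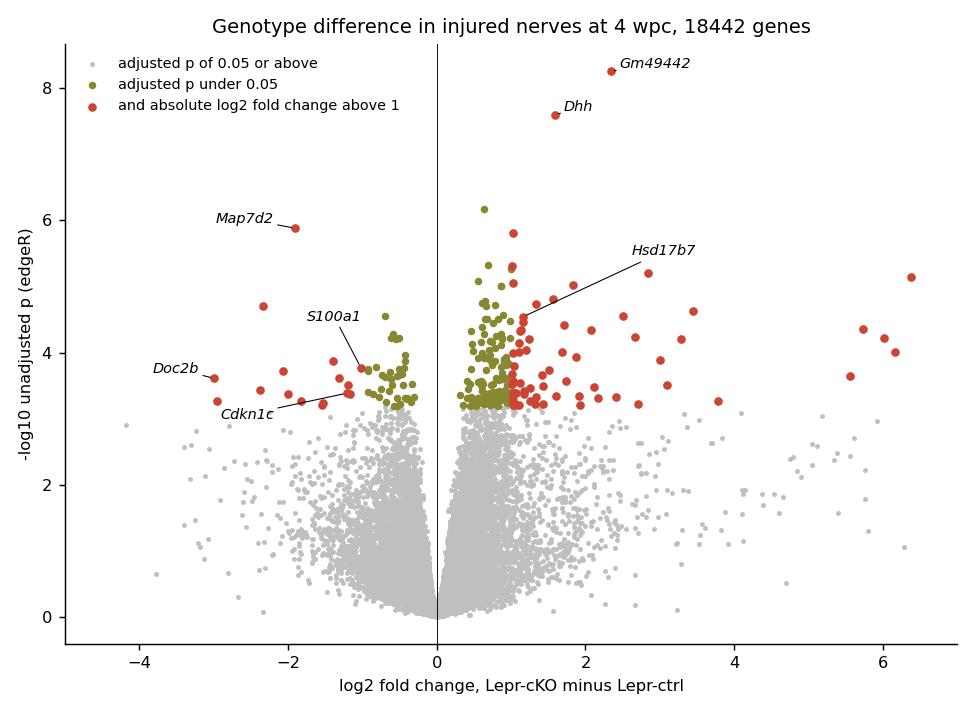
Each point is a gene, with the log2 ratio of *Lepr*-cKO over *Lepr*-ctrl injured nerves at 4 wpc on the x axis and -log10 of the unadjusted edgeR p on the y axis, over 18442 genes. The 188 genes that passed on the right outnumber the 53 on the left, and *Gm49442* and *Dhh* have the lowest p-values.

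By p-value, the strongest genotype difference lay at the *Dhh* locus. *Dhh* (ENSMUSG00000023000, chr15:98891152-98898540, minus strand) encodes desert hedgehog, the ligand by which Schwann cells instruct the perineurium. It had 85.3, 84.9, 125.2 and 75.8 CPM in *Lepr*-ctrl and 381, 271, 308 and 159 CPM in *Lepr*-cKO libraries, a log2 fold change of 1.59 (SE 0.22, edgeR adjusted p = 0.000232). All 4 *Lepr*-cKO levels were above all *Lepr*-ctrl levels, with animal KO-177 nearest to them. *Gm49442* (ENSMUSG00000116033, chr15:98893351-98895175, plus strand), an antisense RNA inside the *Dhh* interval, had 2.79, 1.02, 1.78 and 0.563 CPM against 6.76, 8.64, 10.4 and 5.54 CPM, again without overlap (log2 fold change 2.34, SE 0.31, edgeR adjusted p = 0.000101). Whether strand was used in counting is not stated, so reads of *Dhh* and *Gm49442* cannot be told apart. The next gene upstream of *Dhh*, *Lmbr1l* (ENSMUSG00000022999, chr15:98903917-98918231, minus strand), encodes a membrane protein and was looked up for its position after the values were seen. *Lmbr1l* had 94.5, 84.6, 81.6 and 91.0 CPM in *Lepr*-ctrl and 111, 234, 198 and 160 CPM in *Lepr*-cKO libraries (log2 fold change 1.00, SE 0.19, edgeR adjusted p = 0.0122), and these did not overlap either. On the other side, *Rhebl1* (chr15:98877778-98894540), whose interval reaches into that of *Dhh*, had a log2 fold change of -0.08 (edgeR adjusted p = 0.858).

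The difference at this locus was also present where the nerve was not injured. In healthy nerves at 4 wpc, *Gm49442* was the only gene called (1 of 18442 genes, 0.00542%; 346 genes, 1.88%, at an unadjusted p under 0.05 and 4 genes called by DESeq2), with a log2 fold change of 1.71 (edgeR adjusted p = 0.000857). There, *Lmbr1l* had 0.86 (edgeR adjusted p = 0.0826) and *Dhh* 0.45 (edgeR adjusted p = 1). In injured nerves at 2 wpc, where 105 genes were called (0.569%), the log2 fold changes were 1.34 for *Gm49442* (edgeR adjusted p = 0.00316), 0.81 for *Dhh* (edgeR adjusted p = 0.0399) and 0.68 for *Lmbr1l* (edgeR adjusted p = 0.0407). At 2 wpc the median log2 fold change of 16 skeletal muscle genes between the genotypes was 9.4, and the part of muscle RNA in the 105 calls was not tested. The *Lepr*-cKO mice alone carry the Cre transgene with its *Dhh* sequences. RNA from the transgene and RNA from the resident genes cannot be told apart in counts per gene.

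Targets of hedgehog signaling did not pass the test. *Gli1*, a transcription factor and readout of the pathway, had 46.3, 47.5, 78.3 and 49.6 CPM in *Lepr*-ctrl and 80.9, 134, 120 and 37.0 CPM in *Lepr*-cKO libraries (log2 fold change 0.75, edgeR adjusted p = 0.343). *Ptch1*, the receptor that is itself a target, had 0.69 (edgeR adjusted p = 0.362). For both genes the 3 *Lepr*-cKO animals KO-169, KO-175 and KO-176 were above all controls and animal KO-177 was below them. Of 13 hedgehog pathway genes tested, *Dhh* was the only one that passed, and the median log2 fold change of the list was 0.55. Without animal KO-177, 3 genes passed as higher (background 6.85% in that fit) and the median was 0.67. Without animal KO-169 the median was 0.37.

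Counting *Dhh* and *Gm49442*, 29 called genes had a mean log2 CPM above 1 over all 39 libraries and no overlap between groups, 25 higher and 4 lower. Over the 8 compared libraries 24 of them were above this level, and the 5 at or below it were *Slc1a2*, *Nlgn1*, *Adra1d*, *Idi1* and *Zfand4*, the last of which is named only for this reason. The largest log2 fold change among the 25 higher genes was 2.66, of *Slc1a2*, a gene at low counts that encodes a glutamate transporter of glia. It had 2, 3, 3 and 1 reads in the *Lepr*-ctrl and 61, 5, 22 and 5 reads in the *Lepr*-cKO libraries, a ratio of the pooled levels of 7.16 with a 95% counting interval from 3.61 to 16.1 (edgeR adjusted p = 0.0216). Most of these reads came from animals KO-169 and KO-176. After *Gm49442*, the adrenergic receptor *Adra1d* (1.91, or 1.16 without animal KO-169, edgeR adjusted p = 0.0469 with all libraries), the synaptic adhesion molecule *Nlgn1* (1.87, edgeR adjusted p = 0.0285), the glycosyltransferase *B4galnt3* (1.83, edgeR adjusted p = 0.0122) and the lipid flippase *Atp10b* (1.43, edgeR adjusted p = 0.0486) followed on the log2 scale, apart from *Dhh*. With the animal as a block (limma-voom), *B4galnt3* passed (adjusted p = 0.0447), while *Slc1a2* (2.08, adjusted p = 0.204), *Adra1d* (adjusted p = 0.161), *Nlgn1* (adjusted p = 0.0693) and *Atp10b* (adjusted p = 0.137) did not. *B4galnt3* had 1.39, 0.701, 3.73 and 0.939 CPM in *Lepr*-ctrl and 8.93, 5.58, 6.45 and 3.78 CPM in *Lepr*-cKO libraries, so that control animal WT-173 was just below *Lepr*-cKO animal KO-177, and it passed in 5 of the 8 fits without 1 library.

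The 4 lower genes among these 29 were *Doc2b*, *Map7d2*, *Cdkn1c* and *S100a1*. *Map7d2* (ENSMUSG00000041020, chrX:159414572-159498757), a microtubule-associated protein of the family that recruits kinesin, had 5.57, 4.40, 2.62 and 3.004 CPM in *Lepr*-ctrl and 1.03, 0.821, 0.964 and 1.37 CPM in *Lepr*-cKO libraries. Its groups did not overlap and gave a log2 fold change of -1.90 (SE 0.33, edgeR adjusted p = 0.00567). *Cdkn1c* (ENSMUSG00000037664, chr7:143458339-143461050), an imprinted gene for the cell cycle inhibitor p57Kip2, which also restrains Schwann cell differentiation, had 77.8, 95.7, 39.4 and 66.3 against 23.9, 34.6, 28.4 and 33.97 CPM (-1.21, SE 0.31, edgeR adjusted p = 0.0466). Here the lowest control, animal WT-173, was close to the highest *Lepr*-cKO library. *S100a1*, a calcium-binding protein of the S100 family, had 154, 144.1, 109 and 153 CPM in *Lepr*-ctrl and 43.5, 71.9, 60.1 and 100 CPM in *Lepr*-cKO libraries (-1.02, SE 0.24, edgeR adjusted p = 0.0331). *Doc2b*, a calcium sensor of exocytosis, had 39.6, 4.78, 3.40 and 18.4 CPM against 1.51, 1.04, 2.79 and 2.999 CPM (-2.99, SE 0.73, edgeR adjusted p = 0.039), and its spread was within the *Lepr*-ctrl group. The last 3 genes passed in 2 of the 8 fits that left out a library. Under the animal block (limma-voom), *Map7d2* and *S100a1* passed, and *Cdkn1c* (adjusted p = 0.0532) and *Doc2b* (adjusted p = 0.115) did not.

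**Figure D3:**
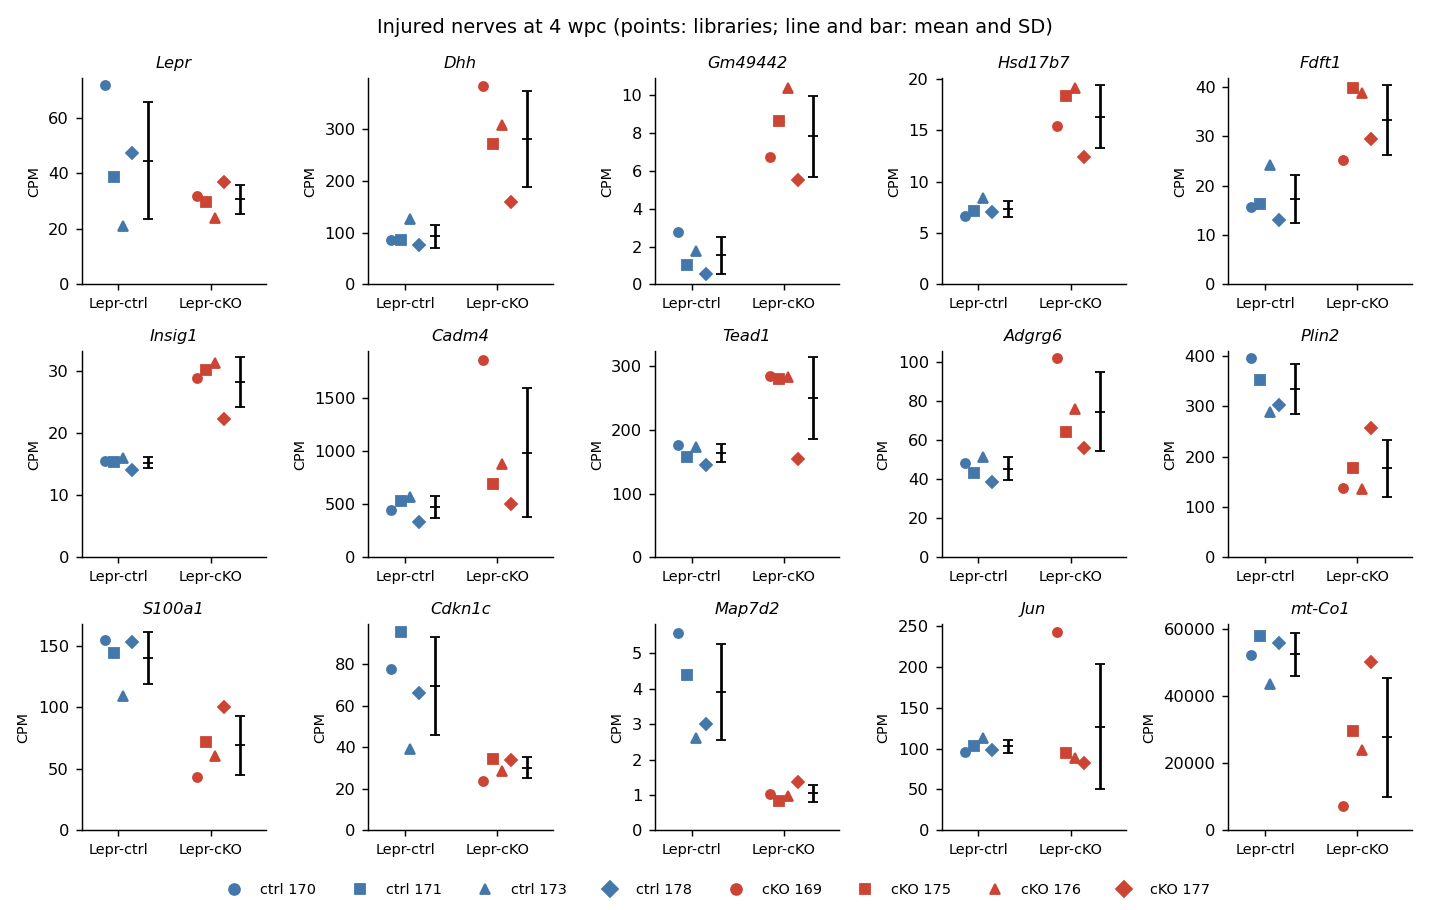
Points show the level of 15 genes in each injured library at 4 wpc (y axes in CPM, from 0; marker shape, animal), with the mean and SD of the 4 libraries per genotype beside them. *Lepr*, *Cadm4*, *Tead1*, *Jun* and *mt-Co1* overlap between the genotypes, and for *Jun* the high *Lepr*-cKO mean comes from animal KO-169 (242 CPM).

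Genes of cholesterol synthesis and uptake were higher in *Lepr*-cKO nerves throughout. All 26 genes of the list were tested and all 26 had a positive log2 fold change, with a median of 0.71 where all genes had 0.03. The test was passed by 9 of them (background 1.02% of all genes, higher), 20 had an unadjusted p under 0.05 (background 12.2%), and for 11 all *Lepr*-cKO libraries were above all *Lepr*-ctrl libraries (background 2.92%). Members from several steps passed. *Idi1*, which isomerizes the isoprenoid unit, rose by 1.33 from a low level (edgeR adjusted p = 0.0469), and *Fdft1*, the squalene synthase, by 0.93 (edgeR adjusted p = 0.0285). Downstream, *Sqle* (squalene epoxidase) rose by 1.01 (edgeR adjusted p = 0.0415) and *Cyp51*, which demethylates lanosterol, by 1.03 (edgeR adjusted p = 0.0493).

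*Hsd17b7*, a reductase of sterol intermediates (ENSMUSG00000026675, chr1:169949535-169969241), had 6.62, 7.14, 8.41 and 7.04 CPM in *Lepr*-ctrl and 15.4, 18.3, 19.1 and 12.4 CPM in *Lepr*-cKO libraries (log2 fold change 1.16, SE 0.24, edgeR adjusted p = 0.0193). Its groups did not overlap, and animal KO-177 was above the highest control. *Insig1*, a sterol-regulated brake on SREBP processing, had 15.6, 15.4, 16.04 and 13.99 CPM against 28.9, 30.1, 31.4 and 22.3 CPM (0.88, SE 0.19, edgeR adjusted p = 0.0216). With the animal as a block (limma-voom), 2 of the 9 cholesterol genes passed, while *Hsd17b7* (1.15, adjusted p = 0.064) and *Insig1* (0.88, adjusted p = 0.0662) did not. Nor did *Fdft1*, *Sqle*, *Cyp51* and *Idi1* in that limma-voom fit (adjusted p = 0.0669, 0.0874, 0.0874 and 0.121). *Srebf2*, the transcription factor of the pathway, missed the threshold (0.75, edgeR adjusted p = 0.0535), although its groups did not overlap.

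*Hmgcs1*, the first committed enzyme of the pathway and the list member that took the most reads, had 105, 150, 159 and 69.4 CPM in *Lepr*-ctrl and 205, 298, 306 and 167.8 CPM in *Lepr*-cKO libraries (1.01, edgeR adjusted p = 0.0698). SREBP factors bind sterol regulatory elements in the promoters of such genes. The letters TCACNCCAC, searched on both strands, were found in 1.24% of 32851 RefSeq promoters (GRCm38.p6, 250 bases before to 50 after the gene start). Of the 26 cholesterol genes, 18 had a promoter in this set and 1 held these letters, *Hmgcs1*. It is shown because it carries the textbook form of the element beside a gene of the list. The 250 bases before its RefSeq start are printed (chr13:119690101-119690350, plus strand), with the match in capitals.
*Hmgcs1* promoter: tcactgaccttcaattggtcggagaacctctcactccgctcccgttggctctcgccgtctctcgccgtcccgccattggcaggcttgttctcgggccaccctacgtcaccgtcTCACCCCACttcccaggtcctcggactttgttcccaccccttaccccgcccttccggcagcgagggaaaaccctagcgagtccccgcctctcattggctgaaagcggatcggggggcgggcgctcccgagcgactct
The match begins 137 bases before the start. It is a description of the sequence, and binding was not measured.

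The direction of the cholesterol list did not depend on a single animal. Its median log2 fold change was between 0.62 and 0.89 with each library left out in turn, 0.75 without animal KO-169, 0.83 without animal KO-177 and 0.85 without both. The number of members that passed was 3, 13 and 10 in these last 3 fits (background 0.0691%, 6.85% and 1.19%, higher). In healthy nerves of the same genotypes the median was 0.09, and in injured nerves at 2 wpc 0.03. Between injured and healthy nerves at 4 wpc the median log2 fold change of the list was -2.68 in *Lepr*-ctrl mice, and in *Lepr*-cKO mice it was -1.78. These comparisons share the injured libraries with the genotype comparison and are given side by side only. As an example, *Fdft1* averaged 121 CPM in healthy *Lepr*-ctrl and 130 CPM in healthy *Lepr*-cKO nerves, against 17.3 ± 4.81 (SD, n = 4) and 33.3 ± 7.05 CPM (SD, n = 4) after crush.

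**Figure D4:**
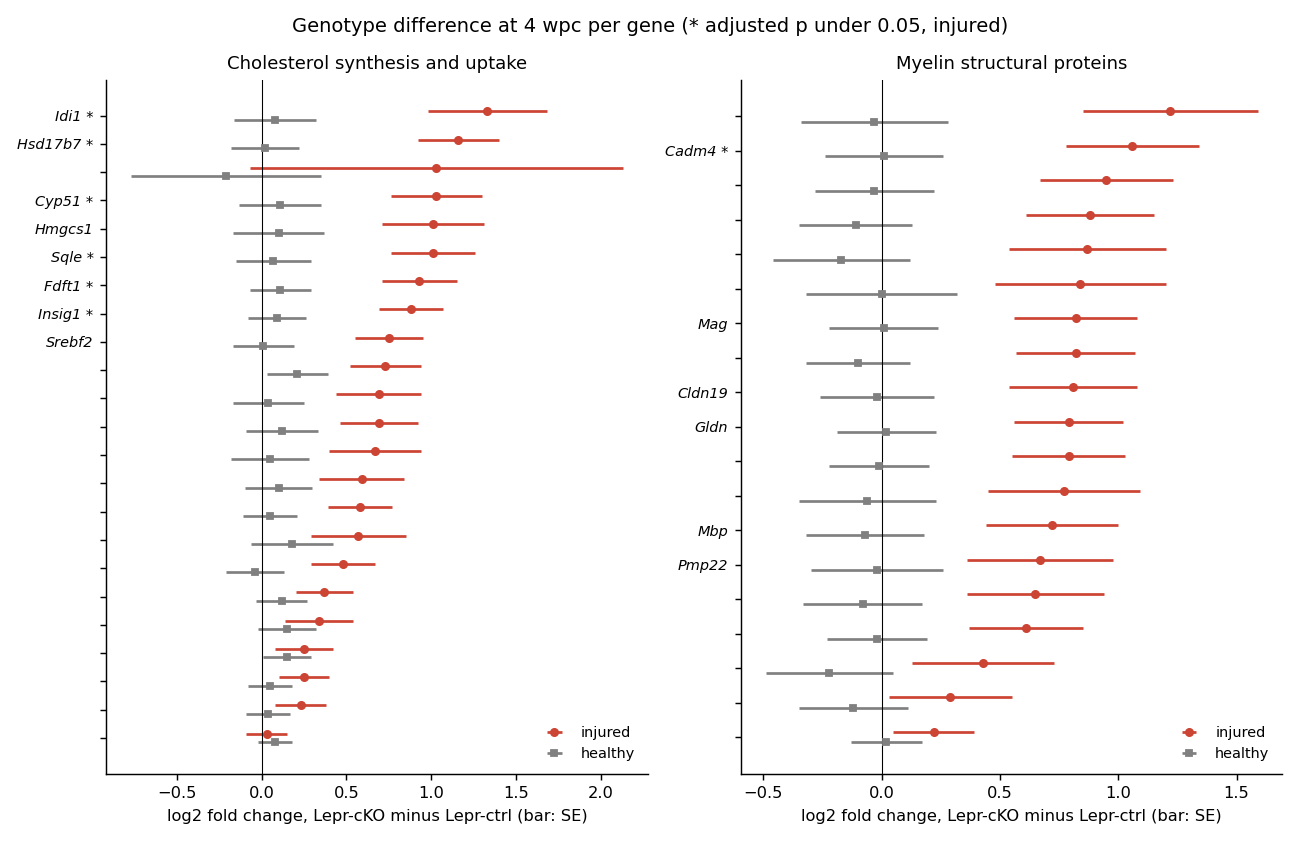
For 23 of the 26 members of the cholesterol list (left) and 19 of the 21 members of the myelin list (right), points show the log2 ratio of *Lepr*-cKO over *Lepr*-ctrl nerves at 4 wpc with its SE (x axis), in injured nerves (circles) and in healthy nerves (squares). All injured values shown are above 0, 6 of these cholesterol genes and 1 myelin gene passed the test (asterisks; genes named in the text are labelled), and the healthy values scatter around 0.

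Genes of fatty acid synthesis showed smaller differences. Of 18 genes, 17 were higher in *Lepr*-cKO nerves and none passed the test, with 10 at an unadjusted p under 0.05 in this direction (background 12.2%) and a median log2 fold change of 0.47. Without animal KO-177, 8 passed (background 6.85% in that fit), and without animal KO-169 the median was 0.38 with 0 passing. The members with the lowest p-values were *Srebf1*, the SREBP factor of fatty acid genes (0.77, or 0.49 without animal KO-169, edgeR adjusted p = 0.0566 with all libraries), *Acaca*, which commits acetyl-CoA to fatty acids (0.49, edgeR adjusted p = 0.0685), the desaturase *Scd2* (0.85, edgeR adjusted p = 0.0701) and the fatty acid synthase *Fasn* (0.73, edgeR adjusted p = 0.0786). *Acaca* alone among these did not overlap, with 23.6 to 28.1 CPM in *Lepr*-ctrl and 30.9 to 41.3 CPM in *Lepr*-cKO libraries.

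Myelin genes were likewise higher in *Lepr*-cKO nerves, with less separation between animals. All 21 genes for structural proteins and lipids of myelin had a positive log2 fold change (median 0.79), 18 had an unadjusted p under 0.05 (background 12.2%, higher), and 1 passed the test (background 1.02%). It was *Cadm4* (chr7:24482023-24504539), an adhesion molecule of the Schwann cell side of the internode, with 448, 530, 572 and 337 CPM in *Lepr*-ctrl and 1860, 693, 882 and 498 CPM in *Lepr*-cKO libraries (1.06, SE 0.28, edgeR adjusted p = 0.0493). In the limma-voom fit with the animal as a block, *Cadm4* did not pass (0.88, adjusted p = 0.0808). Animal KO-169 was far above the other libraries and animal KO-177 was within the controls, and without animal KO-169 the *Cadm4* value was 0.55. *Mbp*, a protein of compact myelin, had 5390, 5180, 6380 and 3840 CPM against 12700, 7740, 8720 and 5110 CPM (0.72, SE 0.28, edgeR adjusted p = 0.148), in the same pattern and at 0.47 without animal KO-169. *Pmp22* (0.67, edgeR adjusted p = 0.22) and *Mag* (0.82, edgeR adjusted p = 0.0811) did not pass either. The list's median was 0.59 without animal KO-169 and 0.97 without animal KO-177, with 0 and 14 members passing, respectively (background 0.0691% and 6.85% in these fits), and 0.81 with 0 passing without both. In healthy nerves it was -0.02 and in injured nerves at 2 wpc 0.02. Genes of Schwann cell identity had the same direction as the myelin list. All 9 were higher (median 0.49), none passed and 6 had an unadjusted p under 0.05 (background 12.2%, higher). Without animal KO-169 the median was 0.35 with 8 of 9 higher and 0 passing. Without animal KO-177 it was 0.70 with 5 passing (background 6.85% in that fit). In sum, 5 Schwann cell markers had 14600, 18000, 17200 and 13100 CPM in *Lepr*-ctrl and 46400, 30900, 37100 and 16000 CPM in *Lepr*-cKO libraries. Their part in the myelin and cholesterol differences was not tested.

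The same order of animals was seen in receptors that drive myelination. All 11 genes of a list of the neuregulin and ErbB axis were higher in *Lepr*-cKO nerves (median 0.63, 8 at an unadjusted p under 0.05, background 12.2%). This list also holds receptors outside that axis, among them *Adgrg6*. The neuregulin receptor *Erbb3* did not pass (0.60, edgeR adjusted p = 0.0721). The number that passed was 1, against 0 without animal KO-169 and 8 without animal KO-177 (background 0.0691% and 6.85%, higher). The median was 0.47 and 0.75 in these fits. The 1 member that passed was *Adgrg6*, a G protein-coupled receptor that Schwann cells need to start myelination, with 48.6, 43.4, 51.6 and 38.4 CPM in *Lepr*-ctrl and 102, 64.2, 76.0 and 55.9 CPM in *Lepr*-cKO libraries (0.71, SE 0.17, edgeR adjusted p = 0.0297). Its groups did not overlap, and with the animal as a block it missed the threshold (limma-voom, adjusted p = 0.0532). The laminin receptor subunit *Itga6* had 0.86 (edgeR adjusted p = 0.0612). Among 12 genes of the node of Ranvier and paranode, 11 were higher and none passed (4 at an unadjusted p under 0.05, all higher, background 12.2%). Without animal KO-177, 4 of them passed (background 6.85% in that fit). The first were gliomedin (*Gldn*, 0.79, edgeR adjusted p = 0.0682), *Nrcam* (0.73, or 0.40 without animal KO-169, edgeR adjusted p = 0.0886 with all libraries), *Cldn19* (0.81, edgeR adjusted p = 0.0969) and the potassium channel *Kcna2* (0.45, edgeR adjusted p = 0.12). Of 19 ion channel genes, another potassium channel passed (background 1.02%, higher). This was *Kcna6* (0.82, SE 0.21, edgeR adjusted p = 0.0469), with animal KO-177 within the controls and a value of 0.49 without animal KO-169. It did not pass with the animal as a block (limma-voom, adjusted p = 0.0807). The number of ion channel genes that passed was 0 without animal KO-169 and 5 without animal KO-177 (background 6.85% in that fit, higher).

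Of 19 transcription factors of Schwann cell differentiation, 14 were higher (median 0.34). At an unadjusted p under 0.05, 9 were higher and 3 lower (background 12.2% and 7.7%). The median was 0.04 without animal KO-169, with 0 passing. Without animal KO-177 it was 0.45 with 8 passing as higher and 3 as lower (background 6.85% and 5.22% in that fit). With all libraries *Tead1*, a partner of YAP and TAZ, was the 1 that passed (background 1.02%, higher), at 0.62 (SE 0.15, edgeR adjusted p = 0.0415). It had 175.3, 158, 173.5 and 145 CPM in *Lepr*-ctrl and 285, 279, 282 and 154 CPM in *Lepr*-cKO libraries, so that 3 animals were nearly equal and animal KO-177 lay in the control range. It missed the threshold under the animal block (0.57, limma-voom, adjusted p = 0.0534). *Sox10*, the lineage factor, had 0.90 (edgeR adjusted p = 0.0633), or 0.44 without animal KO-169, and *Egr2*, the driver of myelin genes, 0.63 (edgeR adjusted p = 0.17). *Jun*, the factor of the repair state, had 95.6, 103, 113 and 98.8 CPM against 242, 94.98, 88.1 and 82.7 CPM, a log2 fold change of 0.31 (edgeR adjusted p = 0.481). Its sign rested on animal KO-169, and without it the value was -0.21. Repair cell genes as a list had the same dependence, with 17 of 20 higher, none past the test and a median of 0.41. At an unadjusted p under 0.05, 3 were higher and 1 lower (background 12.2% and 7.7%). Without animal KO-169 the median of this list was -0.04 with 8 of 20 higher. Without animal KO-177 it was 0.55 with 3 passing as higher and 1 as lower (background 6.85% and 5.22% in that fit). *Ngfr*, the neurotrophin receptor of immature and repair cells, had 773 CPM in animal KO-169 and 84.2 to 230 CPM in the other 7 libraries (edgeR adjusted p = 0.0974). Of the other members, *Gap43*, a growth-associated protein, had lower levels in *Lepr*-cKO nerves (-0.79, edgeR adjusted p = 0.0582). With the animal as a block *Gap43* passed (-0.87, limma-voom, adjusted p = 0.0471). *Mcam* had 0.75 (edgeR adjusted p = 0.115) and *Sox2* 0.60 (edgeR adjusted p = 0.2). Without animal KO-169, *Sox2* was at 0.02 and *Ngfr* at 0.26. In the list of immature and Remak Schwann cells, 10 of 11 genes were higher (median 0.60) and none passed. At an unadjusted p under 0.05, 6 were higher and 1 lower (background 12.2% and 7.7%). Without animal KO-169, 8 of 11 were higher with a median of 0.21 and 1 of them at an unadjusted p under 0.05. Without animal KO-177 the median was 0.78 with 5 passing as higher and 1 as lower (background 6.85% and 5.22% in that fit). The lowest p-values among higher members were those of *Ncam1* (0.73, edgeR adjusted p = 0.0629) and *Cadm3* (0.84, edgeR adjusted p = 0.0793; 0.52 without animal KO-169).

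Matrix genes were also mostly higher. Of 27 collagen chains 25 were higher (median 0.54) and none passed (11 at an unadjusted p under 0.05, all higher, background 12.2%). Without animal KO-169 the median was 0.30 with 3 at an unadjusted p under 0.05 (2517 of all 18801 genes in that fit, in either direction). Without animal KO-177 it was 0.70 with 9 passing (background 6.85% in that fit). *Col14a1* was closest to the threshold (0.91, edgeR adjusted p = 0.0503), before *Col5a1* (0.69, edgeR adjusted p = 0.0625), *Col1a1* (0.90, edgeR adjusted p = 0.0886) and *Col5a2* (0.54, edgeR adjusted p = 0.0905). With animal KO-169 left out, *Col1a1* was at 0.30 and *Col5a2* at 0.33. Of 29 laminin chains and integrins 21 were higher (median 0.46) and none passed. At an unadjusted p under 0.05, 11 were higher and 1 lower (background 12.2% and 7.7%). For this list the median was 0.22 without animal KO-169, and without animal KO-177 it was 0.62 with 11 passing (background 6.85% in that fit, higher). The list includes *Lama4* (0.85, edgeR adjusted p = 0.0628), *Itgb8* (0.91, edgeR adjusted p = 0.0682) and *Itga2* (0.98, edgeR adjusted p = 0.0682), of which *Lama4* was at 0.50 and *Itgb8* at 0.60 with that animal left out. *Mmp15*, a membrane-bound matrix metalloprotease, was the 1 gene of 19 proteases and inhibitors that passed (background 1.02%, higher). It had 176.8, 206, 241 and 152 CPM in *Lepr*-ctrl and 697, 364, 418 and 198 CPM in *Lepr*-cKO libraries (1.11, SE 0.25, edgeR adjusted p = 0.0274). Only animal KO-177 overlapped the controls, and with the animal as a block *Mmp15* missed the threshold (limma-voom, adjusted p = 0.0532). The median of the list was 0.26, and -0.02 without animal KO-169, when none passed.

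Markers of the perineurium, the sheath around the nerve fascicles, had mostly positive log2 fold changes too. Of 11 genes 9 were higher (median 0.76), none passed and 1 had an unadjusted p under 0.05 (background 12.2%, higher). The sum of *Cldn1*, *Slc2a1* and *Itgb4* was 498, 501, 469 and 558 CPM in *Lepr*-ctrl and 882, 658, 707 and 482 CPM in *Lepr*-cKO libraries, with animal KO-177 among the controls, and its part in the matrix difference was not tested. In healthy nerves the median log2 fold change between genotypes was 2.54 for the perineurial and 4.52 for the adipocyte list, without a gene that passed.

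The mean level of the proliferation list was 2.14 log2 CPM in *Lepr*-ctrl and 2.56 log2 CPM in *Lepr*-cKO libraries. Of 22 genes 17 were higher in *Lepr*-cKO nerves (median 0.39) and none passed, with 9 at an unadjusted p under 0.05 in this direction (background 12.2%). Without animal KO-169 the median was 0.23 with 4 at an unadjusted p under 0.05 (2517 of all 18801 genes in that fit, in either direction). Without animal KO-177 it was 0.49 with 8 passing (background 6.85% in that fit). The kinase *Aurkb* had 0.701 to 1.31 CPM in *Lepr*-ctrl and 1.47 to 3.67 CPM in *Lepr*-cKO libraries (1.22, edgeR adjusted p = 0.0616), without overlap. The S phase cyclin *Ccne2* (0.75, edgeR adjusted p = 0.0536), *Birc5* (0.90, or 0.43 without animal KO-175, edgeR adjusted p = 0.0947 with all libraries) and *Top2a* (0.91, edgeR adjusted p = 0.147) overlapped. Of 7 cyclin-dependent kinase inhibitors, *Cdkn1c* was the 1 that passed (background 0.287%, lower). The median of the list was 0.09 (-0.28 without animal KO-169, when none passed).

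Genes of lipid-laden phagocytes were lower in *Lepr*-cKO nerves. Of 16 genes 15 had a negative log2 fold change (median -0.74), 2 passed as lower (background 0.287%), 8 had an unadjusted p under 0.05 in this direction (background 7.7%), and for 5 all *Lepr*-cKO libraries were below all *Lepr*-ctrl libraries (background 2.75%). *Plin2*, which coats lipid droplets (ENSMUSG00000028494, chr4:86648386-86670060), had 395, 352, 288 and 301 CPM in *Lepr*-ctrl and 137, 176.7, 135.8 and 256 CPM in *Lepr*-cKO libraries (-0.92, SE 0.22, edgeR adjusted p = 0.0343), without overlap. *Apoe*, the lipoprotein component that carries cholesterol between cells (ENSMUSG00000002985, chr7:19696109-19699188), had 7720, 19300, 10200 and 12100 CPM against 9070, 6040, 4850 and 6140 CPM (-0.92, SE 0.23, edgeR adjusted p = 0.0466). Its groups overlapped by animals WT-170 and KO-169, and with the animal as a block *Plin2* passed and *Apoe* did not (limma-voom, adjusted p = 0.0447 and 0.0628). Both genes are expressed by Schwann cells too, so that the list does not measure macrophages alone. The number that passed as lower was 0 without animal KO-169, 7 without animal KO-177 (background 5.22%) and 3 without both (background 0.683%). The median of the list was between -0.83 and -0.48 with each library left out. In healthy nerves it was -0.08, and between injured and healthy nerves it was 3.03 in *Lepr*-ctrl mice and 2.32 in the *Lepr*-cKO group.

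Markers of macrophages moved in the same direction and did not pass. Of 18 genes 15 were lower (median -0.57), with 8 at an unadjusted p under 0.05 in this direction (background 7.7%). *Cd68*, a macrophage lysosomal protein, had 163, 307, 187 and 231 CPM in *Lepr*-ctrl and 121, 127, 88.7 and 164 CPM in *Lepr*-cKO libraries (-0.83, edgeR adjusted p = 0.147), which overlapped between animals WT-170 and KO-177. *C1qb* (-0.67, edgeR adjusted p = 0.173), *Adgre1* (-0.77, edgeR adjusted p = 0.18) and *Lyz2*, the macrophage gene with the most reads (-0.80, edgeR adjusted p = 0.203), were alike. Of the 3 members with a positive log2 fold change, the 1 with an unadjusted p under 0.05 was *Il34*, a growth factor for macrophages made by other cells (0.60, edgeR adjusted p = 0.0852), at 0.26 without animal KO-169. The sum of 5 macrophage markers was 559, 1090, 699 and 798 CPM against 585, 522, 326 and 570 CPM, and its part in the lower phagocyte genes was not tested. In healthy nerves the macrophage list had a median of -0.43, also without a gene that passed.

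Lysosomal genes were mostly lower, 20 of 30, with a median of -0.29 and 13 at an unadjusted p under 0.05 in this direction (background 7.7%). The vacuolar proton pump subunit *Atp6v1b2* was the 1 that passed (background 0.287%, lower), with 301 to 342 CPM in *Lepr*-ctrl and 185 to 256 CPM in *Lepr*-cKO libraries (-0.53, SE 0.14, edgeR adjusted p = 0.0499), and it missed the threshold with the animal as a block (limma-voom, adjusted p = 0.0532). The median of the list was -0.19 without control animal WT-171, and -0.36 with 26 of 30 lower without animal KO-169. The number of lysosomal genes that passed as lower was 0 without animal KO-169, 5 without animal KO-177 (background 5.22%) and 4 without both (background 0.683%). Of 12 genes of cholesterol efflux, 7 were lower (median -0.14) and *Apoe* was the 1 that passed (background 0.287%, lower). Without animal KO-169 the median was -0.34 with 0 passing. Without animal KO-177 it was -0.10 with 5 passing as lower (background 5.22% in that fit). Of 15 genes of iron and heme, *Hmox2*, the constitutive heme oxygenase, was the 1 that passed (background 0.287%, lower), with 48.4, 54.5, 43.5 and 65.0 CPM against 27.4, 31.7, 21.4 and 45.6 CPM (-0.75, SE 0.19, edgeR adjusted p = 0.0455), with animal KO-177 inside the control range. It passed in 2 of the 8 fits without 1 library. The number of these genes that passed was 0 without animal KO-169, against 1 higher and 3 lower without animal KO-177 (background 6.85% and 5.22%).

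Cytosolic ribosomal protein genes were mostly lower. Of 79 genes 70 were lower, with a median of -0.43 and 48 at an unadjusted p under 0.05 in this direction (background 7.7%), yet none passed the adjusted threshold. *Rps3a1* had 171.5, 180, 143 and 153 CPM in *Lepr*-ctrl and 72.7, 119, 100 and 162 CPM in *Lepr*-cKO libraries (-0.52, edgeR adjusted p = 0.0535). *Rplp0* (-0.47, edgeR adjusted p = 0.0682) was also lowest in animal KO-169 and within the controls in animal KO-177. *Rpl41* (-0.50, edgeR adjusted p = 0.0724) was lowest in animal KO-169 too, but there animal KO-175 (238.9 CPM) was the one within the controls. Without animal KO-169 the median was -0.25, and without animal KO-177 it was -0.60 with 42 genes passing as lower (background 5.22% in that fit), against 7 without both (background 0.683%). Ribosomal protein genes have many processed copies in the genome that can share reads, and how such reads were counted is not stated. Of 25 translation factors 22 were lower (median -0.34) and none passed (13 at an unadjusted p under 0.05, all lower, background 7.7%). Without animal KO-177, 12 of them passed (background 5.22% in that fit). The first were *Eif3h*, *Eef1b2*, *Eif3e* and *Eif3f* (-0.47 to -0.46, edgeR adjusted p between 0.0703 and 0.094).

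Mitochondrially encoded genes of oxidative phosphorylation (OxPhos) followed the same order of animals. Of 13 such genes 7 could be tested, since the other 6 had at most 1 count in any of the 8 libraries. All 7 were lower in *Lepr*-cKO nerves, with a median of -0.92 and none past the threshold (6 at an unadjusted p under 0.05, background 7.7%, lower). *mt-Co1*, a subunit of complex IV and the OxPhos gene with the most reads, had 52200, 57800, 43400 and 55800 CPM in *Lepr*-ctrl and 7360, 29500, 23800 and 50100 CPM in *Lepr*-cKO libraries (-0.92, SE 0.44, edgeR adjusted p = 0.235). The complex I subunits *mt-Nd1*, *mt-Nd2*, *mt-Nd4* and *mt-Nd5* had log2 fold changes between -0.96 and -0.91 (edgeR adjusted p between 0.217 and 0.224). Without animal KO-169 the median was -0.61 and no gene had an unadjusted p under 0.05. Without animal KO-177 it was -1.40 with 6 genes passing (background 5.22% in that fit, lower). Nuclear-encoded subunits differed less but were mostly lower, 29 of 37 complex I genes (median -0.09) and 32 of 39 genes of complexes II to V (median -0.19). Over all 18442 genes tested, 8544 were lower. No gene passed in either list (2 and 5 at an unadjusted p under 0.05 in either direction, background 19.9%). Without animal KO-169, 24 of 37 and 37 of 39 were lower. Without animal KO-177, 27 and 32 were lower, and 1 gene of complexes II to V passed as higher (background 6.85% in that fit).

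No gene passed in the lists of mitochondrial biogenesis, mitochondrial ribosomal proteins, glycolysis and autophagy. The median was 0.05 over 21 genes of mitochondrial biogenesis, -0.08 over 79 mitochondrial ribosomal protein genes, -0.10 over 27 genes of glycolysis and lactate and -0.09 over 28 autophagy genes, with 0, 8, 5 and 7 at an unadjusted p under 0.05 in either direction (background 19.9%), so that the counts were near or below the share of all genes. Without animal KO-177, 4 mitochondrial ribosomal protein genes passed as lower, 1 glycolysis gene as higher and 2 as lower, and 1 autophagy gene as higher and 3 as lower. Of all genes, 6.85% passed as higher and 5.22% as lower without that animal. Without both animals KO-169 and KO-177, 2 autophagy genes passed as lower (background 0.683%), with 9 lower and 1 higher at an unadjusted p under 0.05. In that fit 4170 of all 19319 genes were at an unadjusted p under 0.05, in either direction. The coactivator *Ppargc1a* had 0.54 (edgeR adjusted p = 0.435), and *Tfam*, which packages and transcribes mitochondrial DNA, had 25.0 to 32.8 CPM in *Lepr*-ctrl and 26.9 to 33.9 CPM in *Lepr*-cKO libraries (-0.02, SE 0.11, edgeR adjusted p = 0.942). For the autophagy markers, *Map1lc3b* had -0.13 (edgeR adjusted p = 0.496) and *Sqstm1*, which encodes p62, -0.25 (edgeR adjusted p = 0.399). *Atg5*, part of the complex that lipidates LC3, had 36.7, 38.8, 36.4 and 40.4 CPM against 27.9, 29.9, 25.5 and 31.5 CPM (-0.41, edgeR adjusted p = 0.0554), without overlap. *Gabarap* had -0.43 (edgeR adjusted p = 0.06), *Atg12* -0.26 (edgeR adjusted p = 0.133) and *Atg4b* 0.15 (edgeR adjusted p = 0.184), the last with all *Lepr*-cKO levels above the controls. In glycolysis and lactate transport the lowest p-values were those of *Aldoc* (-1.0, edgeR adjusted p = 0.0877), *Eno2* (0.39, edgeR adjusted p = 0.168), the lactate transporter *Slc16a1* (0.92, edgeR adjusted p = 0.179) and *Ldhb* (0.37, edgeR adjusted p = 0.232).

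Vessel genes showed how far animal KO-177 lay from the other *Lepr*-cKO libraries. All 17 endothelial genes were lower in *Lepr*-cKO nerves (median -0.43), and none passed or had an unadjusted p under 0.05. *Pecam1*, an adhesion molecule of endothelium, had 331, 203, 166 and 283 CPM in *Lepr*-ctrl and 124, 101, 116 and 305 CPM in *Lepr*-cKO libraries (-0.61, edgeR adjusted p = 0.328), so that 3 *Lepr*-cKO libraries were below all controls. *Egfl7* (-0.73, edgeR adjusted p = 0.346), *Esam* (-0.57, edgeR adjusted p = 0.339) and *Emcn* (-0.43, edgeR adjusted p = 0.414) showed the same. Without animal KO-177 the list had a median of -0.86 with 5 genes passing (background 5.22% in that fit, lower). Leaving out animal KO-169 gave -0.29 with 15 of 17 lower and 0 passing, and without both it was -0.84 with 0 passing. Of 13 genes of nitric oxide and cyclic GMP signalling, 7 were higher and 6 lower (median 0.08), and 1 passed (background 1.02%, higher). It was *Gucy1a2*, a subunit of the nitric oxide receptor (2.17, edgeR adjusted p = 0.0469). *Gucy1a2* had at most 0.255 CPM and at most 4 reads in *Lepr*-ctrl and 0.551 to 1.02 CPM in *Lepr*-cKO libraries. It passed in 2 of the 8 fits without 1 library, and at 2 wpc it had 1.83 (edgeR adjusted p = 0.0459). This gene did not pass under the animal block (limma-voom, adjusted p = 0.064).

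Sex was unequal between the genotypes, and a term for it ended some calls. Of the 44 named genes that passed, 26 also did so with this term. The other 18 had adjusted p-values from 0.0539 (*Sqle*) to 0.0715 (*Cyp51*) in that edgeR fit. Those described above were *Sqle*, *Idi1*, *Cyp51*, *Cadm4*, *Tead1*, *Kcna6*, *Adra1d*, *Atp10b*, *Doc2b*, *Apoe*, *Atp6v1b2*, *Hmox2* and *Gucy1a2*.

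**Figure D5:**
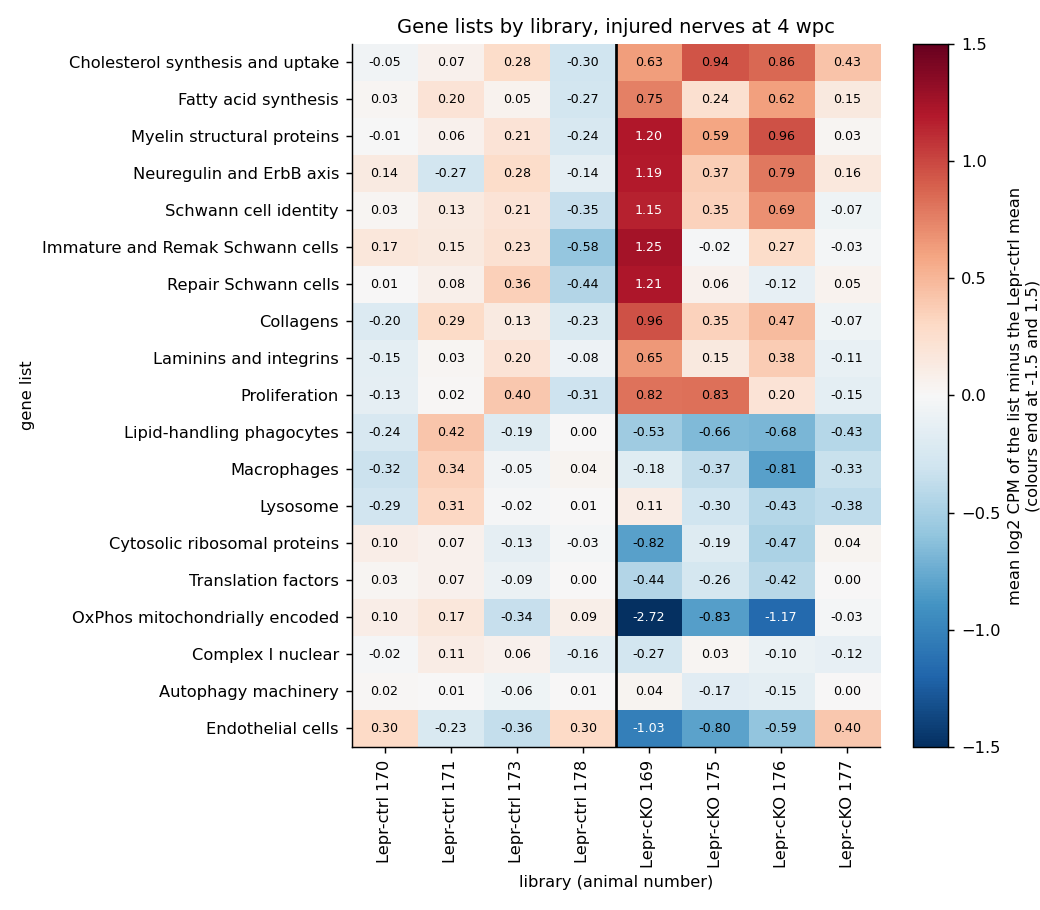
Each cell gives the mean log2 CPM of a gene list (rows) in an injured library at 4 wpc (columns) minus the mean of the 4 *Lepr*-ctrl libraries. The cholesterol list is above every control in all 4 *Lepr*-cKO libraries (0.43 to 0.94) and the phagocyte list below every control (-0.68 to -0.43), while the myelin, ribosomal and OxPhos lists put animal KO-177 (0.03, 0.04 and -0.03) among the controls and animal KO-169 farthest from them (1.20, -0.82 and -2.72).

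Whether these differences were specific to injury or to the late time point was tested on the difference itself. When the genotype difference in injured nerves was compared with that in healthy nerves at 4 wpc, no gene was called (edgeR, 0 genes, with 2013 or 10.9% at an unadjusted p under 0.05, and 3 genes called by DESeq2). Among the genes named here the lowest adjusted p of this test was 0.353 (edgeR, *Map7d2* and *Rhbdd2*). Against the genotype difference at 2 wpc, again no gene was called (edgeR, 0 genes, with 2761 or 15% at an unadjusted p under 0.05, and 52 genes called by DESeq2). The lowest adjusted p among named genes was 0.0517 (edgeR), shared by *Nlgn1*, *B4galnt3*, *Doc2b* and *Map7d2*. For *Doc2b* the log2 fold change was -2.99 at 4 wpc and 1.39 at 2 wpc, and for *Map7d2* it was -1.90 and 0.30. Without animal KO-177, edgeR called 24 genes in the comparison with healthy nerves and 254 in that with 2 wpc, so that both counts depended on this library.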

How the data were processed

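Per the labels and the methods, the authors demultiplexed the reads with bcl2fastq 2.20.0.422, aligned them with STAR 2.5 against GRCm38 and obtained gene counts from featureCounts 1.5.0-p1. The deposited values are these raw counts for 55573 genes, without normalization. Strand and multimapping settings are not given in the sources used here.

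Sample titles gave the genotype, nerve and time of each library. edgeR 4.0.16 (R 4.3.3) was fitted to all 39 libraries in 8 groups (TMM normalization, filterByExpr with a minimum count of 10 and a total of 15, quasi-likelihood test with Benjamini-Hochberg adjustment over 18442 genes), with the groups sharing 1 estimate of the spread. Genes passed at an adjusted p under 0.05 and were called with an absolute log2 fold change above 1 in addition. Log2 CPM used a prior count of 2. Counts covered 10905806 to 25923752 reads per injured library at 4 wpc, and intervals on reads cover counting error only. Counts of the injured comparison were also simulated with 200 of 18442 genes changed 4-fold. There edgeR recovered 94% and called 7 unchanged genes, and DESeq2 1.42.0 recovered 95.5% and called 17 unchanged genes. Counts were drawn independently per gene and library, and only genes with a *Lepr*-ctrl mean above 10 counts were changed. Shifts of whole libraries, as in animals KO-169 and KO-177, were not simulated, so these rates do not cover them.

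Genes were named by rule: *Lepr*; per direction, up to 8 called genes of largest fold change whose groups lay apart and whose mean log2 CPM over all libraries exceeded 1; in each list the members that passed, otherwise up to 4 with the lowest p; a set of fixed genes; and the most abundant cell type markers. Any other gene is marked in the text as picked from its values. The members and lists were chosen with earlier results of these data known. Some genes of the lists are not reported here. Gene names came from GENCODE release M21 and promoters from RefSeq.

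Both nerves of a mouse share its number, which pairs them by design. Over the 5000 most variable genes, the deviations of the 8 pairs from their group means correlated with r between -0.0614 and 0.23. Alternatives were other normalizations, filters and sets of libraries, a term for sex, DESeq2, limma-voom 3.58.1 with the animal as a block, and leaving out each library.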

Additional observations from a re-analysis of the deposited data

Results flagged for a closer look

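Within each group of 4 injured libraries at 4 wpc, the highest or lowest value was compared with the nearest other value for the named genes, the read totals, the mitochondrial share and the first principal component of all libraries, 244 groups of values in all. In 18 of them 1 library stood far from the others, where chance gives about 1 in 20 groups.

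*Lepr*-cKO animal KO-177 was concerned most often. It was below the other *Lepr*-cKO libraries for *Sqle* (19.4 CPM against 31.6 to 33.8), *Mag* (184 against 365 to 390), *Tead1* (154 against 279 to 285), *Ptch1* (65.3 against 226 to 255) and *Ppargc1a* (4.63 against 10.4 to 10.7 CPM). It was above them for *Pecam1* (305 CPM against 101 to 124), *Emcn* (91.7 against 34.9 to 40.8), *Eif3e* (125.4 against 79.5 to 87.0) and *Atg12* (61.2 against 42.7 to 45.6 CPM).

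*Lepr*-cKO animal KO-169 was above the other *Lepr*-cKO libraries for *Jun* (242 CPM against 82.7 to 95), *Ngfr* (773 against 161 to 185) and *Atg4b* (65.6 against 61.0 to 61.7 CPM). Among controls, animal WT-173 was apart for *Gli1* (78.3 CPM against 46.3 to 49.6), *mt-Nd4* (15400 against 20200 to 20600 CPM) and the mitochondrial share (15% against 18.9% to 19.1%). Control animal WT-171 was apart for *Fasn* (143 CPM against 101 to 108) and *Atp6v1g1* (111 against 101 to 102 CPM), and control animal WT-178 for *Rhbdd2* (16 CPM against 22.1 to 22.8).

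Genes of the Y chromosome were detected in the injured library of animal KO-169, which is female by *Xist*. It had 2.64 CPM of *Ddx3y* (72 reads), where the other 24 female libraries of the series had at most 0.375 CPM and the male injured libraries at 4 wpc had 68.2 to 74.6 CPM. *Eif2s3y* was at 4.89 CPM (at most 0.784 in the other female libraries), *Kdm5d* at 1.03 (at most 0.174) and *Uty* at 0.551 CPM (at most 0.0652). The healthy nerve of the same mouse had 0.039 CPM of *Ddx3y*. This library also had the most reads, the lowest mitochondrial share and the highest *Sox10* level of the 8. The source of the Y-linked reads and its part in these values were not tested.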

How the results depend on the processing

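The count of genes called between injured nerves at 4 wpc (83, 67 higher and 16 lower) ranged from 6 (without control animal WT-171) to 702 (without *Lepr*-cKO animal KO-177) when each library was left out, with 44, 193, 8, 15, 72 and 12 genes without animals WT-170, WT-173, WT-178, KO-169, KO-175 and KO-176, respectively. These fits called 4 to 356 genes as higher and 1 to 346 as lower. Higher and lower genes numbered 39 and 12 with DESeq2 size factors, 33 and 7 without an expression filter, 35 and 6 with a term for sex, 94 and 37 in DESeq2, 73 and 40 with the 19 libraries at 4 wpc, 188 and 53 by the adjusted p alone, and 0 and 0 with the 8 libraries alone. Chosen after seeing the data, leaving out animals KO-169 and KO-177 together gave 139 genes (98 and 41) and the 8 libraries with a term for sex 0 genes (1745 at an unadjusted p under 0.05). With the animal as a block, limma-voom called 27 genes, 11 higher and 16 lower. For the genotype difference of injured minus healthy nerves, the paired fit with the animal as a fixed block called 1 gene and limma-voom with a random block 0. In the injured comparison, 26 of the 44 named genes that had passed no longer did so under the random block, and *Gap43* newly passed (-0.87, adjusted p = 0.0471). The count in healthy nerves was 0 with at least 10 counts in every injured library and 4 in DESeq2. The injured minus healthy comparison gave 0 to 24 genes with a library left out (4 without animal WT-173, 24 without animal KO-177) and 3 in DESeq2. Against 2 wpc, the counts were 0 to 254 with a library left out (32 without animal WT-173, 19 without animal KO-175, 1 without animal KO-169, 254 without animal KO-177), 9 with a term for sex, 4 when the injured nerve of KO-126 at 2 wpc was left out, 1 without animals KO-169 and KO-177 and 52 in DESeq2. The cause of these changes was not tested. The sign turned for *Jun* without animal KO-169 (-0.21; up to 0.44 with another library left out) and without animals KO-169 and KO-177 (-0.16), for *Tfam* without animals WT-171, WT-178 and KO-176 (0.00, 0.01 and 0.02; down to -0.11 with another left out) and for *Rhebl1* without animals KO-169 and KO-177 (0.14). Over 119 named genes, 1842 of 2366 values under an alternative kept their direction and side of the threshold, 374 no longer passed, 6 turned in direction and the rest newly passed. The 374 come only from the 44 named genes that had passed. A gene that had not passed counts as kept when it again does not pass, so the 1842 do not measure how stable the passed genes were. Of 715 list medians, 685 moved by less than the spread between libraries. Depth limits the genes at low counts most, among them the 31 called genes with a mean log2 CPM of at most 1 over all libraries.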

Other observations

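Some genes outside the lists also passed the test, and they are named because their values were seen. *Sema6d*, a transmembrane semaphorin, had 81.7, 73.6, 94.5 and 63.4 CPM in *Lepr*-ctrl and 189, 160, 174 and 110 CPM in *Lepr*-cKO libraries (log2 fold change 1.02, SE 0.20, edgeR adjusted p = 0.0122), without overlap. *Gjc3*, the connexin 29 of Schwann cells (1.01, edgeR adjusted p = 0.0366), and *Hspg2*, the basal lamina proteoglycan perlecan (0.73, edgeR adjusted p = 0.0415), rose with overlap by animal KO-177. *Pisd*, which makes phosphatidylethanolamine in mitochondria, had 24.9 to 32.3 CPM in *Lepr*-ctrl and 34.7 to 59.8 CPM in *Lepr*-cKO libraries (0.65, SE 0.14, edgeR adjusted p = 0.0193). *Ptdss2*, a phosphatidylserine synthase (0.60, edgeR adjusted p = 0.0224), *Selenoi*, an ethanolamine phosphotransferase (0.72, edgeR adjusted p = 0.0466), and the desaturase family gene *Fads3* (0.76, edgeR adjusted p = 0.0201) rose with overlap between the groups. With the animal as a block (limma-voom), these 3 genes (adjusted p = 0.0583, 0.0914 and 0.0532) and *Gjc3* (adjusted p = 0.0532) did not pass. *Rhbdd2*, a rhomboid family gene that passed in all 8 fits without 1 library, had 22.8, 22.1, 22.6 and 16 CPM against 35.9, 35.4, 32.5 and 26.4 CPM (0.64, SE 0.11, edgeR adjusted p = 0.00413). Its log2 fold change was 0.05 in healthy nerves and 0.01 at 2 wpc.

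*Atp6v1c1*, a subunit of the vacuolar proton pump, had 144.4, 152, 149 and 152 CPM in *Lepr*-ctrl and 90.0, 114, 93.0 and 124.7 CPM in *Lepr*-cKO libraries (-0.50, SE 0.11, edgeR adjusted p = 0.0216). The subunits *Atp6v1g1* (-0.43, edgeR adjusted p = 0.0284) and *Atp6v1f* (-0.53, edgeR adjusted p = 0.0373) also fell without overlap, as did *Rragc* (-0.43, edgeR adjusted p = 0.0298) and *Lamtor5* (-0.43, edgeR adjusted p = 0.0469), which tether the growth kinase mTORC1 to lysosomes. These genes were picked because they passed, without a fixed list, so they give no count for the pump or for these tethers as groups. The chaperone genes *Bag1* (-0.62, edgeR adjusted p = 0.0216) and *Hspe1* (-0.55, edgeR adjusted p = 0.0216) fell without overlap. *Mfge8*, a bridge between dying cells or debris and phagocytes, had 306, 636, 158 and 317 CPM against 214, 126.2, 110 and 170 CPM (-1.19, SE 0.30, edgeR adjusted p = 0.0415), with overlap, or -0.76 without control animal WT-171. Under the animal block (limma-voom), *Lamtor5* (adjusted p = 0.0539) and *Mfge8* (adjusted p = 0.0669) did not pass. A term for sex ended the call of *Hspg2*, *Selenoi*, *Atp6v1f*, *Lamtor5* and *Mfge8* (edgeR, adjusted p = 0.0547, 0.0609, 0.054, 0.0619 and 0.0583).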
